A study of Mus musculus with 6 samples.

Results

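The subject here is a set of 38 lysosome and autophagy genes, followed through bone marrow cells of mice with acute myeloid leukaemia. The genes are given by symbol, the rule uses no measured value, and the list was chosen with earlier results of these data known. All 38 were found with the same identifier in every matrix, out of 31053 features in the MA9 matrices and 32285 in the HM matrices. The study profiled single cells from leukaemic marrow by droplet 3′ RNA sequencing, and its title names leukaemia stem cells, chemotherapy, immunosurveillance and an axis of SHP-1 and PFKP. SHP-1 is a tyrosine phosphatase encoded by Ptpn6. In the MA9 model the leukaemia carries MLL-AF9, and in the HM model Hoxa9-Meis1. There were 6 groups of 1 library each. They were HM given Arac+Dox, HM given PBS, MA9 Shp-1 Δ/Δ (deletion) given Arac+Dox, MA9 Shp-1 Δ/Δ given PBS, MA9 Shp-1 f/f (floxed, not deleted) given Arac+Dox, and MA9 Shp-1 f/f given PBS. Both HM libraries are titled f/f. AraC is cytarabine and Dox doxorubicin by their usual reading. Per the labels, the mice came from embryonic stem cells given the fusion genes. Strain, age, time of sampling, number of animals, and the promoter or cells in which Shp-1 was deleted are not given in the sources used here.

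Lysosomes are acidic compartments in which proteases, glycosidases and lipases break down what a cell has engulfed or what autophagy delivers. In macroautophagy a starting complex marks a membrane, a ubiquitin-like conjugation system attaches proteins of the Atg8 family to it, and receptors bring cargo into the closing vesicle, which then fuses with a lysosome. Tfeb and Tfe3 are helix-loop-helix factors that switch on many lysosomal and autophagy genes through a palindromic motif, CACGTG, often with a T before it. Macrophages are known for abundant lysosomes, and neutrophils for granules made along a related route. Ordered by role, the list holds 9 proteases, 5 proteins of the lysosomal membrane, 8 proteins of glycan and lipid breakdown, both transcription factors, 3 proteins of the start of autophagy, 4 of conjugation, 4 Atg8 proteins and 3 receptors.

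Promoters of 31 of the 38 genes were found in RefSeq windows of 300 bases (GRCm38.p6), from 250 bases before the annotated start to 50 after it. CACGTG, searched on both strands, lay in the windows of 12 of these genes (38.7%), against 2187 of 27025 genes in the whole table (8.09%). The longer TCACGTG overlaps it and lay in 9 (29.0%), against 1160 genes of the table (4.29%). Of 107 other pathway genes listed beside the 38 and with a window, 19 (17.8%) held CACGTG and 18 (16.8%) the longer motif. By role the 12 genes of the list with CACGTG were the proteases Ctsa, Ctsd, Lgmn and Ctsl, the membrane proteins Mcoln1 and Lamp1, the glycosidases Glb1 and Gaa, the conjugation genes Atg7, Atg5 and Atg3, and the receptor Bnip3. A match is a description of letters in a window, not a binding site. Shown are the 250 bases before the start of 5 genes, from both the lysosomal and the autophagy roles, whose windows hold the longer motif, each 5′ to 3′ on the gene's strand, with every CACGTG in capitals.
Ctsd (ENSMUSG00000007891; chr7:142387828-142388077, minus strand): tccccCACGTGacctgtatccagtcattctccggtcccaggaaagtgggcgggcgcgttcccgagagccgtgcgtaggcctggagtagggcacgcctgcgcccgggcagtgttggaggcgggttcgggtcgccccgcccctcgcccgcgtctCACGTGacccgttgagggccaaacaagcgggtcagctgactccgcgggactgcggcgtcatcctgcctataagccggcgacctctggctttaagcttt
Lamp1 (ENSMUSG00000031447; chr8:13158911-13159160, plus strand): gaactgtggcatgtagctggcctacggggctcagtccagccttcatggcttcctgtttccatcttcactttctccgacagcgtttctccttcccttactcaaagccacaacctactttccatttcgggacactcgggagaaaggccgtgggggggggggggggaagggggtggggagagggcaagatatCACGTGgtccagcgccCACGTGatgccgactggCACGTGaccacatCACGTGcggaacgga
Mcoln1 (ENSMUSG00000004567; chr8:3500269-3500518, plus strand): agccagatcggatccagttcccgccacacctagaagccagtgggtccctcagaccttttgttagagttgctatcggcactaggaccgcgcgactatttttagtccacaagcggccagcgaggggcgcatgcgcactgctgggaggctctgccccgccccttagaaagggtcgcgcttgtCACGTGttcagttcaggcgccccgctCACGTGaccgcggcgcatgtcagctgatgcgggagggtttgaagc
Atg3 (ENSMUSG00000022663; chr16:45158579-45158828, plus strand): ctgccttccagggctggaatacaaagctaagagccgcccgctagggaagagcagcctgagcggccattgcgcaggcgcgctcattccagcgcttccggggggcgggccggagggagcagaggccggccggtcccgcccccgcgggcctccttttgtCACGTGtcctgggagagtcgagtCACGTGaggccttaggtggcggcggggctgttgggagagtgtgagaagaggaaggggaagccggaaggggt
Atg7 (ENSMUSG00000030314; chr6:114670846-114671095, plus strand): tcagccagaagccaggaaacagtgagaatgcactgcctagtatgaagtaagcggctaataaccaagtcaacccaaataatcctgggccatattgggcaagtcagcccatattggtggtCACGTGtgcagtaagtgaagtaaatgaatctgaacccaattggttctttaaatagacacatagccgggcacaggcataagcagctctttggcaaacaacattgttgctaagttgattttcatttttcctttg
Lamp1 held 4 copies, the nearest 15 bases before the start. Ctsd, Mcoln1 and Atg3 held 2 copies each and Atg7 held 1, at 132 bases before the start.

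Barcodes with 500 genes or more and no more than 10% of UMIs from mitochondrial genes were used, 2755 to 9750 per library, with 15111411 to 103581646 UMIs and medians of 4021 to 10113 UMIs per cell. In the HM PBS library this left 22.1% of barcodes, since 74.7% exceeded the mitochondrial limit, and 87.2% to 94.8% in the other libraries. Between 18 and 27 barcodes were shared by any pair of MA9 libraries and 7 by the HM pair. Ptpn6 stood at 43.6 and 172 CPM (UMIs of the gene per 1000000 UMIs) in the MA9 libraries labelled Δ/Δ given Arac+Dox and PBS, and at 57.7 and 186 CPM in those labelled f/f given Arac+Dox and PBS. It thus went against 2 labels, that of the high Δ/Δ PBS library and that of the low f/f Arac+Dox library, and the sources do not give which exons were deleted, so a 3′ tag may miss it. Secondary granule markers summed to 3366 and 3248 CPM in the libraries labelled Δ/Δ given Arac+Dox and PBS, against 33108 and 34609 CPM in those labelled f/f. That split follows genotype as labelled, and would follow treatment with those 2 labels exchanged, so it cannot decide between the readings. Were those 2 labels exchanged, the pairs labelled as deletion would be chemotherapy pairs, and the MA9 pairs labelled as chemotherapy would be deletion pairs. All MA9 comparisons are therefore between libraries as labelled. Cell types were assigned by gates on marker genes that include no gene of the list, covered 81.3% to 96.1% of kept cells, and are called "-like". Of each type's own markers, most were at least 2-fold over the rest of the library, for example 8 to 9 of 9 in monocyte-like, 9 to 12 of 12 in macrophage-like, 10 of 10 in mature neutrophil-like and 6 to 10 of 10 in secondary granule neutrophil precursor-like cells. The gates cut ranges: 4491 cells lay 1 step outside the monocyte gate, against 11503 inside it, and 257 outside the macrophage gate, against 365 inside it.

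The list was expressed in every library, and its members spanned a wide range of levels. Their summed level was 4394 and 3723 CPM in the HM libraries given Arac+Dox and PBS. In the MA9 libraries it was 4380 and 4605 CPM in those labelled Δ/Δ given Arac+Dox and PBS, and 4981 and 4744 CPM in those labelled f/f given Arac+Dox and PBS. The 6 sums lie close together, HM PBS being the lowest. In a library total, fewer cells of a type and less RNA per cell cannot be told apart.

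Single genes set the 2 leukaemia models apart more than the sum did. The glycan and lipid genes were lower in both HM libraries, at 837 and 747 CPM in all with Arac+Dox and PBS, against 1014 to 1210 CPM in the MA9 libraries. Proteases were lower too, at 1090 and 832 CPM against 1229 to 1449 CPM. So were the membrane genes, at 690 and 643 CPM against 876 to 1197 CPM. Over all genes the median log2 ratio of HM PBS over MA9 f/f PBS was -0.68. A lower level in HM is thus not particular to these roles. The Atg8 family, whose members coat the forming autophagosome, was higher in HM, at 1110 and 907 CPM against 464 to 636 CPM in MA9. In none of these roles did the ranges of the models overlap. Map1lc3b, which encodes the LC3B protein widely used as a marker of autophagosomes, carried much of the Atg8 difference, at 458 and 315 CPM in HM against 121 to 161 CPM in MA9. Hexa, a subunit of the hexosaminidase that clears gangliosides, ran the other way, at 77.6 and 55.1 CPM in HM against 191 to 262 CPM in MA9. The least expressed member was the lysosomal calcium channel Mcoln1 in all libraries except HM PBS, where Lgmn and Gaa were lower, and Mcoln1 ranged over 2.78 to 6.66 CPM.

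**Figure D1:**
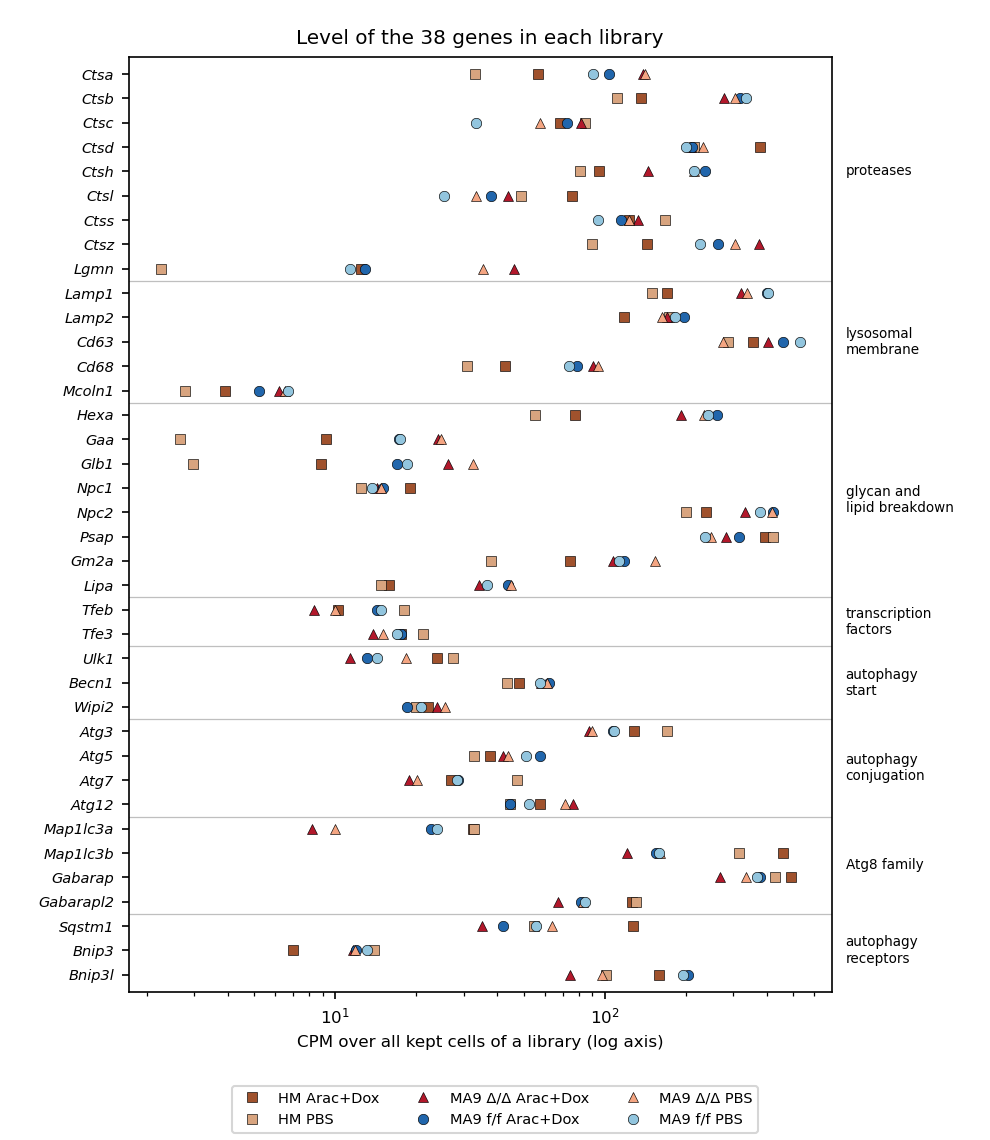
Level of each of the 38 genes in each of the 6 libraries, in CPM over all kept cells on a log axis; each symbol is 1 library and genes are grouped by role. The HM symbols lie to the left of the MA9 symbols for Hexa, Gaa and Glb1 and to the right for Map1lc3b.

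Across cell types the list was most abundant in macrophage-like cells. Its summed level over the libraries had a median of 21551 CPM there (range 9851 to 31887, 5 libraries with at least 20 such cells). Conventional dendritic-like cells followed at 7303 (6834 to 9455), monocyte-like cells at 6019 (4799 to 7536) and mature neutrophil-like cells at 4809 CPM (3733 to 5435). The macrophage range lay above every other, while the dendritic and monocyte ranges overlapped, and so did the monocyte and mature neutrophil ranges. Stem and progenitor-like cells stood at 4742 (2500 to 5996), promyelocyte-like cells, which make primary granules, at 3683 (3524 to 4498), B cell-like cells at 3557 (3232 to 4063), secondary granule neutrophil precursor-like cells at 3421 (2511 to 3642) and T cell-like cells at 2798 CPM (2024 to 2911). Each of these neighbours overlapped the next in the order.

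The lysosomal and the autophagy genes had different orders. Summed over proteases, membrane and breakdown genes, macrophage-like cells led with a median of 19935 CPM (8212 to 30038) and mature neutrophil-like cells held 2405 CPM (1714 to 3244). Summed over the autophagy genes and both transcription factors, mature neutrophil-like cells led with 2261 CPM (2000 to 2808), above the 1616 CPM (1299 to 1850) of macrophage-like cells with no overlap. By median level, 21 genes were highest in macrophage-like cells, 10 in mature neutrophil-like, 3 in conventional dendritic-like, 2 in stem and progenitor-like, 1 in promyelocyte-like and 1 in B cell-like cells. For 8 of these the range of the first type lay clear of that of the second: Ctsb, Ctsl, Lgmn and Psap in macrophage-like cells, Map1lc3b, Atg3 and Atg7 in mature neutrophil-like cells, and Gm2a in conventional dendritic-like cells. Gm2a encodes the activator that presents ganglioside to hexosaminidase, and its medians there and in macrophage-like cells, the next, were 401 and 236 CPM.

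**Figure D2:**
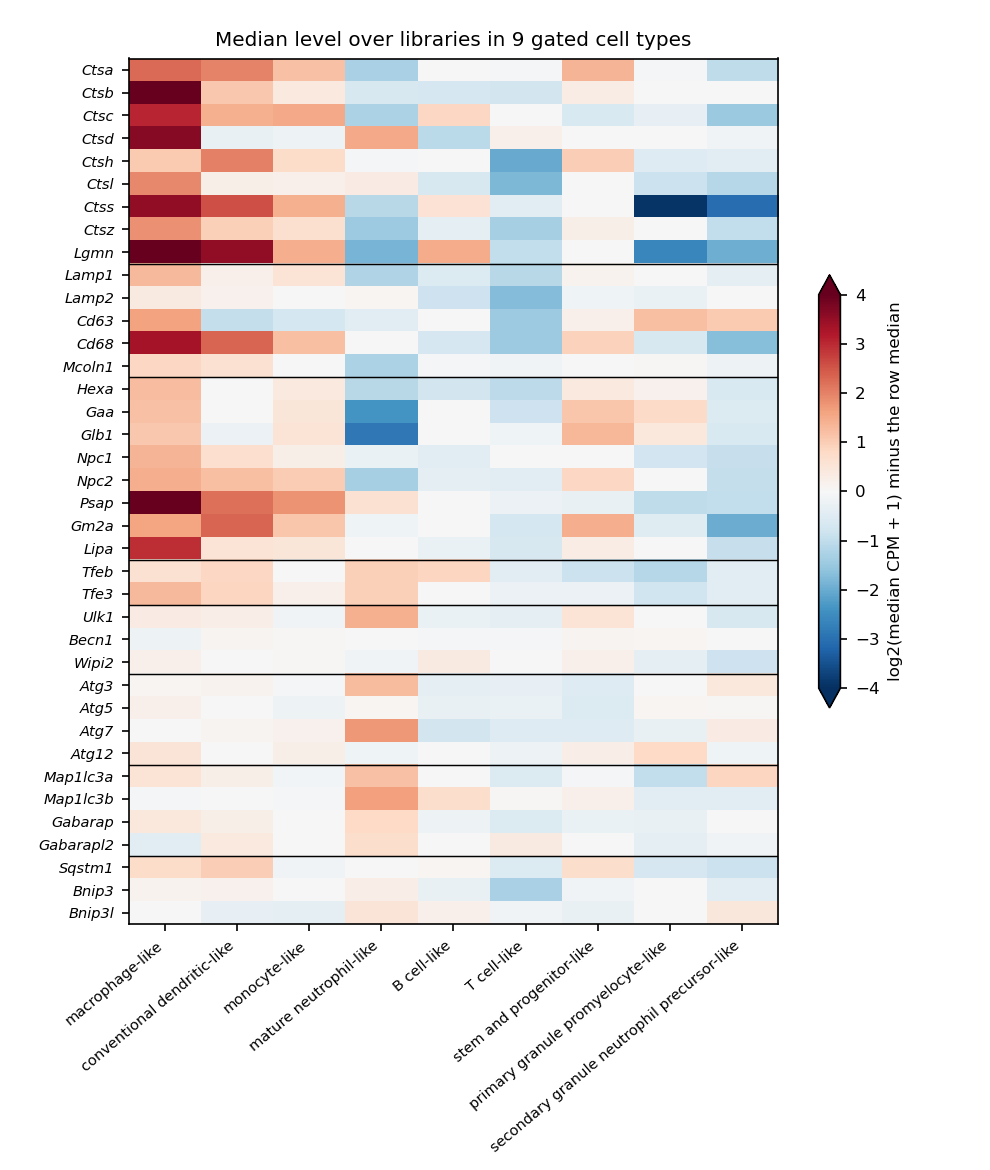
Median level over libraries of each of the 38 genes in 9 gated cell types, coloured as log2(median CPM + 1) minus the median of the gene's row. Most protease and breakdown genes are highest in the macrophage-like column, and Map1lc3b, Gabarap, Atg3, Atg7 and Ulk1 in the mature neutrophil-like column.

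Cell types of the same library were compared with edgeR's quasi-likelihood test on summed UMIs, with the library as a block and Benjamini-Hochberg adjustment over all genes tested. The 6 libraries are unlike each other in leukaemia, genotype and treatment, the labels do not say that they come from separate animals, and the p-values measure only the spread between these libraries. Scaling by TMM and scaling to total UMIs differed by 0.43, -0.41 and 0.43 (log2) in the contrasts of monocyte-like, mature neutrophil-like and stem and progenitor-like cells with neutrophil precursor-like cells, and by 0.06, -0.04 and -0.11 in the others. A gene is called higher or lower below only where both scalings gave the call, unless the sentence says otherwise. Granule transcripts were present in gates of cells that do not make them, and the part of free RNA or doublets in the results was not tested. The 10 secondary granule markers summed to 381 to 18217 CPM in T cell-like cells, 716 to 15505 in B cell-like cells and 2759 to 23872 in macrophage-like cells, against 290 to 2791 CPM in monocyte-like cells and 47312 to 109180 CPM in the neutrophil precursor-like cells that the markers define. The low sum in monocyte-like cells was set by their gate, which took only cells with under 1% of UMIs from these markers. Gates for T cell-like, B cell-like and macrophage-like cells had no such limit, so these contrasts are unlike on that point.

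Protease and lipid-handling transcripts took a far larger share of UMIs in macrophage-like than in monocyte-like cells. Of the 38 genes 20 were higher and 0 lower with TMM scaling, where 10.7% and 8.83% of the 10320 genes tested were called higher and lower. All 20 were also called with total scaling. The median log2 fold change of the list was 0.57, against -0.10 over all genes. The proteases gave 8 of 9 calls, the membrane genes 3 of 5, the breakdown genes 4 of 8, the transcription factors 1, Tfe3, and the 14 autophagy genes 4.

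Among the proteases, Lgmn encodes legumain, which cuts after asparagine and processes cathepsins. In macrophage-like cells it stood at 349 CPM in the HM library given Arac+Dox, at 726 and 415 CPM in the MA9 libraries labelled Δ/Δ given Arac+Dox and PBS, and at 601 and 978 CPM in those labelled f/f given Arac+Dox and PBS. In monocyte-like cells of the same libraries it stood at 30.2, 64.1, 42.4, 36.1 and 27.7 CPM. Every macrophage value lay above every monocyte value, with a log2 fold change of 3.81 ± 0.23 (SE; adjusted p = 6.99e-09). Ctsb, cathepsin B, stood in the same order of libraries at 602, 4107, 3318, 3676 and 7637 CPM in macrophage-like cells and 265, 281, 285, 435 and 456 CPM in monocyte-like cells. Its fold change was 3.14 ± 0.32 (adjusted p = 2.95e-06), and the HM library was the lowest. The macrophage markers summed to 2104 CPM in its gate, against 4819 to 11803 CPM in the MA9 gates, and their part in its lower values was not tested. Ctsd, cathepsin D, was higher by 3.22 ± 0.35 (adjusted p = 6.25e-06), Ctss, the cathepsin that trims the invariant chain of MHC class II, by 2.15 ± 0.18 (adjusted p = 3.05e-07), and Ctsh, an aminopeptidase, was the protease with no call (0.16 ± 0.17, adjusted p = 0.562).

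Psap encodes prosaposin, the precursor of the saposins that help lysosomal enzymes act on sphingolipids. It stood at 1788, 3828, 2815, 4947 and 8331 CPM in macrophage-like cells and at 904, 388, 291, 827 and 551 CPM in monocyte-like cells, again in the same order of libraries. The groups did not overlap, and the fold change was 2.78 ± 0.31 (adjusted p = 8.21e-06). Lipa, the acid lipase that frees cholesterol from its esters, was higher by 2.40 ± 0.26 (adjusted p = 4.97e-06), and Npc1, which exports that cholesterol, by 1.54 ± 0.28 (adjusted p = 0.000928). Npc2, its soluble partner, had no call (0.38 ± 0.17, adjusted p = 0.138). At the membrane, Cd63 was higher by 2.09 ± 0.18 (adjusted p = 4.21e-07) and Cd68 by 1.66 ± 0.17 (adjusted p = 2.3e-06), both glycoproteins of late endosomes and lysosomes.

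Of the autophagy genes, Map1lc3a (1.44 ± 0.26, adjusted p = 0.000992), Gabarap (0.56 ± 0.14, adjusted p = 0.0081), Sqstm1 (0.57 ± 0.18, adjusted p = 0.0323) and Bnip3l (0.44 ± 0.14, adjusted p = 0.038) were higher. Sqstm1 encodes the cargo receptor p62 and Bnip3l a receptor for mitochondria. The genes of the start of autophagy and of conjugation had no call, with fold changes of -0.11 to 0.37. Of the other pathway genes, 16 of 31 hydrolases and activators tested were higher and 0 lower, and 7 of 16 V-ATPase subunits, which acidify the lysosome, higher and 0 lower, with TMM scaling. The other autophagy machinery had 4 of 32 genes higher and 2 lower. Macrophage-like cells numbered 21 to 163 per library, and leaving out 1 library left 14 to 19 genes higher, the 14 without the library labelled MA9 Δ/Δ given Arac+Dox.

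In mature neutrophil-like cells most autophagy genes, and both transcription factors, took a larger share of UMIs than in secondary granule neutrophil precursor-like cells. Median UMIs per cell were 2165 to 6361 over the libraries, against 5004 to 14570 in precursor-like cells. A larger share is thus not shown to be more transcripts per cell. With TMM scaling 26 of the 38 genes were higher and 4 lower, where 30.6% and 36.1% of the 9134 genes tested were called higher and lower. With both scalings 19 were higher and 4 lower, the 19 being 9 of the 14 autophagy genes, both transcription factors and 8 of the 22 lysosomal genes. The median log2 fold change of the list was 1.05, against -0.12 over all genes. All 6 libraries entered. Of the genes of dissociation and stress, such as Fos and Jun, 8 of 9 tested were higher too and 0 lower, with a median of 1.11, and their part in the fold changes of the list was not tested. In the contrasts with the same precursors described next, 6 of 11 were higher and 1 lower in monocyte-like cells, and 5 of 11 higher and 0 lower in stem and progenitor-like cells.

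Map1lc3b was at 497 CPM in the lowest, 574 in the median and 852 in the highest library of mature neutrophil-like cells, against 106, 134 and 249 CPM in precursor-like cells. The groups did not overlap, and the log2 fold change was 2.52 ± 0.14 (adjusted p = 2.67e-08). Atg7, the enzyme that activates both ubiquitin-like proteins of autophagy, was at 51.2, 75.0 and 96.1 CPM against 22.8, 27.7 and 36.2 CPM, again without overlap (1.81 ± 0.15, adjusted p = 3.91e-07). Atg3, which hands the Atg8 proteins to lipid, was higher by 1.29 ± 0.14 (adjusted p = 2.5e-06). Both are genes whose promoters above hold CACGTG. So do Ctsd and Ctsl, also higher here, and Lamp1, Glb1 and Gaa, which were lower. A link of the motif to these fold changes was not tested. Ulk1, the kinase that starts autophagy, was higher by 2.39 ± 0.23 (adjusted p = 1.25e-06), in 6 of 6 libraries, though with 5.29 CPM in its lowest library it overlapped the precursors. Gabarap and Gabarapl2, further Atg8 genes, were higher by 1.35 ± 0.12 (adjusted p = 3.73e-07) and 1.08 ± 0.13 (adjusted p = 8.76e-06).

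Both transcription factors were higher as well. Tfeb was at 14.2, 29.6 and 50.4 CPM in the lowest, median and highest library of mature neutrophil-like cells, against 6.66, 10.99 and 15.1 CPM in precursor-like cells. The ranges overlapped at their ends, while Tfeb was higher in 6 of 6 libraries (1.73 ± 0.24, adjusted p = 2.76e-05). Tfe3 was higher by 1.81 ± 0.16 (adjusted p = 5.46e-07). Several lysosomal genes were higher too: Ctsd by 2.00 ± 0.14 (adjusted p = 9.44e-08), Cd68 by 2.20 ± 0.20 (adjusted p = 6.01e-07), Gm2a by 2.23 ± 0.19 (adjusted p = 4.46e-07), Psap by 1.90 ± 0.19 (adjusted p = 1.48e-06) and Ctsl by 1.83 ± 0.15 (adjusted p = 3.16e-07).

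The genes lower with both scalings were Cd63, Lamp1, Glb1 and Gaa. Cd63, which is also found in the membrane of primary granules, was at 87.7, 205 and 313 CPM against 459, 588 and 727 CPM, without overlap (-1.05 ± 0.20, adjusted p = 0.00035). Lamp1, an abundant glycoprotein of the lysosomal membrane, was lower by a log2 value of -0.51 ± 0.13 (adjusted p = 0.00313), and the galactosidase gene Glb1 by -1.73 ± 0.32 (adjusted p = 0.00036). Ctsb and Ctsz, with no call under TMM (0.02 and 0.08), were lower with total scaling (-0.40 and -0.35). Of the other pathway genes, 16 of 32 of the autophagy machinery were higher and 2 lower, and 10 of 16 V-ATPase subunits higher and 2 lower, with TMM scaling. Markers of the primary granule summed to 163 to 1632 CPM in mature neutrophil-like cells.

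In monocyte-like cells protease and breakdown genes took a larger share of UMIs than in neutrophil precursor-like cells, and some autophagy genes a smaller share. With TMM scaling 19 genes were higher and 11 lower, where 26.1% and 25.6% of 10885 genes tested were called higher and lower, and with both scalings 19 were higher and 4 lower. The median of the list was 0.40, against 0.03 over all genes. All 8 breakdown genes and 8 of 9 proteases were higher, in all 6 libraries each. Of the autophagy genes 1 was higher, Wipi2, which binds the phosphoinositide of the forming vesicle.

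Ctss was at 159 CPM in the lowest, 313 in the median and 586 in the highest library of monocyte-like cells, against 9.31, 12.99 and 19.2 CPM in precursor-like cells. The groups lay far apart, with a log2 fold change of 4.04 ± 0.21 (adjusted p = 2.05e-06). Gm2a was at 128, 172 and 309 CPM against 7.13, 19.3 and 27.5 CPM (3.04 ± 0.15, adjusted p = 1.96e-06). Lgmn followed at 9.25, 33.3 and 64.1 CPM against 0.866, 2.20 and 4.44 CPM (3.73 ± 0.22, adjusted p = 3.47e-06). Neither of these overlapped. Ctsc, cathepsin C, which activates the serine proteases of granules, was higher by 2.63 ± 0.49 (adjusted p = 0.00213), Psap by 2.11 ± 0.19 (adjusted p = 3.38e-05) and Ctsa, the cathepsin that also protects galactosidase, by 1.95 ± 0.13 (adjusted p = 6.7e-06).

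Cd63 was lower in monocyte-like cells by a log2 value of -2.58 ± 0.45 (adjusted p = 0.00136). It was at 188 and 14.6 CPM in the HM libraries given Arac+Dox and PBS, and at 138 to 201 CPM in the MA9 libraries, so HM PBS stood far below the rest. Map1lc3a (-1.73 ± 0.19, adjusted p = 9.28e-05), Bnip3l (-1.16 ± 0.11, adjusted p = 4.64e-05) and Atg3 (-0.94 ± 0.12, adjusted p = 0.00029) were also lower with both scalings. Lamp2, Becn1 and Gabarap were called lower with TMM (-0.40, -0.42 and -0.43) but had fold changes of 0.043, 0.020 and 0.013 with total scaling, and Map1lc3b turned from -0.09 with no call to 0.36 with a call as higher. Cd63 at 14.6 CPM rested on 192 monocyte-like cells, and without the HM PBS library 19 genes were again higher and 11 lower with TMM.

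Stem and progenitor-like cells shared part of that pattern. With TMM scaling 13 genes were higher than in neutrophil precursor-like cells and 8 lower, over 5 libraries, where 16.3% and 19.2% of 9811 genes tested were called, and with both scalings 13 and 4. The median of the list was 0.30, against 0.00 over all genes. Among the 13 were Lgmn, Gm2a, Ctss, Cd68, Ctsa, Glb1, Gaa and Sqstm1.

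Gm2a stood in stem and progenitor-like cells at 71.3 CPM in the HM library given Arac+Dox, at 248 and 210 CPM in the MA9 libraries labelled Δ/Δ given Arac+Dox and PBS, and at 239 and 218 CPM in those labelled f/f given Arac+Dox and PBS. In precursor-like cells of the same libraries it stood at 16.1, 15.3, 22.5, 27.5 and 23.0 CPM. The groups did not overlap (2.74 ± 0.27, adjusted p = 9.56e-05). Lgmn stood at 5.74, 118, 34.9, 11.4 and 7.50 CPM in stem and progenitor-like cells, highest in both libraries labelled Δ/Δ, and at 2.17, 4.44, 2.47, 2.23 and 0.866 CPM in precursor-like cells (2.98 ± 0.47, adjusted p = 0.00131). Sqstm1 was higher by 0.98 ± 0.21 (adjusted p = 0.00675). Atg3 (-1.31 ± 0.18, adjusted p = 0.000697), Map1lc3a (-1.47 ± 0.25, adjusted p = 0.00183), Bnip3l (-1.22 ± 0.16, adjusted p = 0.000444) and Cd63 (-1.20 ± 0.28, adjusted p = 0.00951) were lower. HM entered with 37 cells, the library labelled MA9 f/f given Arac+Dox with 27, and leaving out 1 library gave 9 to 18 genes higher, the 18 without HM.

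Lysosomal genes took a smaller share of UMIs in T cell-like and B cell-like cells than in monocyte-like cells. Autophagy genes mostly had no call there. In T cell-like cells 20 of the 38 genes were lower and 2 higher with TMM scaling, where 17.2% and 16.7% of 10378 genes tested were called lower and higher. In B cell-like cells 13 were lower and 1 higher, where 7.94% and 10.4% of 10299 genes were called. With both scalings the counts were 20 lower and 1 higher in T cell-like cells and 13 lower and 1 higher in B cell-like cells.

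In T cell-like cells Lgmn was lower by a log2 value of -2.37 ± 0.23 (adjusted p = 5.95e-06), Ctsh by -2.50 ± 0.26 (adjusted p = 1.08e-05) and Cd68 by -2.45 ± 0.23 (adjusted p = 4.23e-06), each in 6 of 6 libraries. Ctsd was called higher there with TMM only (0.48 ± 0.15, adjusted p = 0.0238; 0.40 with total scaling, adjusted p = 0.0612). Gabarapl2 was the gene higher with both scalings (0.48 ± 0.14, adjusted p = 0.0178), at 66.2, 118 and 165 CPM against 68.3, 90.9 and 93.0 CPM in the lowest, median and highest library, which overlapped. In B cell-like cells Cd68 (-2.07 ± 0.21, adjusted p = 5.3e-05), Psap (-1.34 ± 0.24, adjusted p = 0.00284) and Hexa (-1.25 ± 0.16, adjusted p = 0.000256) were lower. Tfeb was the gene higher in B cell-like cells (1.08 ± 0.33, adjusted p = 0.0436). It stood at 11.7, 29.3, 36.1, 21.5 and 28.1 CPM in HM given Arac+Dox, MA9 Δ/Δ given Arac+Dox and PBS and MA9 f/f given Arac+Dox and PBS as labelled, against 13.6, 10.2, 9.50, 20.4 and 18.5 CPM in monocyte-like cells, higher in 4 of 5. The call of Tfeb was lost without the library labelled MA9 Δ/Δ given Arac+Dox (0 higher), and the number higher in T cell-like cells was 0 without that labelled MA9 Δ/Δ given PBS and 1 without that labelled MA9 f/f given PBS or that labelled MA9 Δ/Δ given Arac+Dox.

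**Figure D3:**
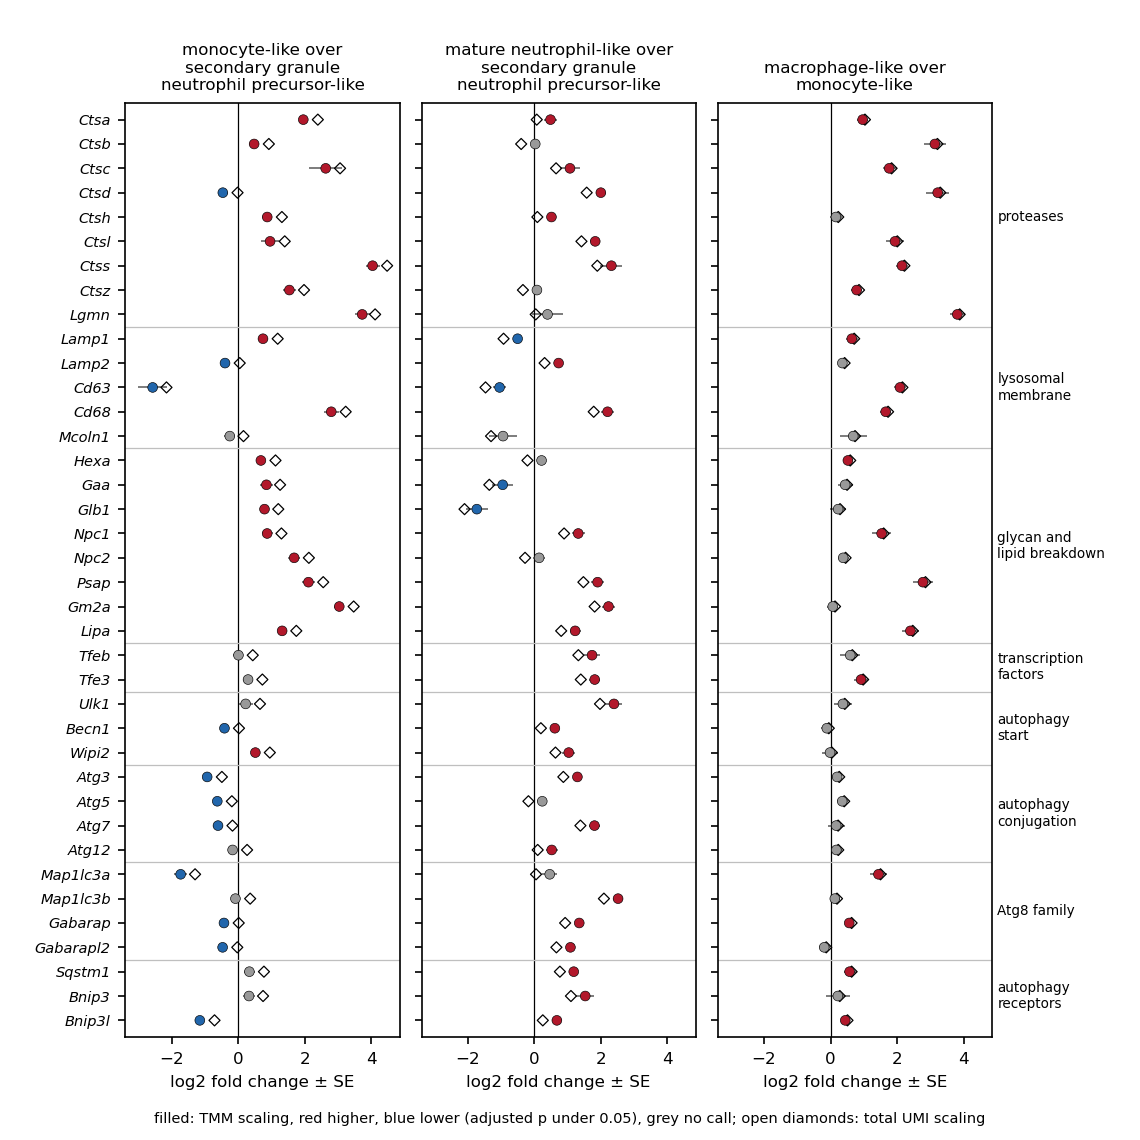
Log2 fold change ± SE of each of the 38 genes from edgeR in 3 contrasts of gated cell types; filled circles are TMM scaling, red where higher and blue where lower at an adjusted p under 0.05 and grey where not called, and open diamonds are scaling to total UMIs. Macrophage-like cells show no blue point, and mature neutrophil-like cells show red points for both transcription factors and all 3 genes of the start of autophagy.

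Between groups of the study each side is 1 library, so differences have no replicate check and no test was made. A gene was measured where it reached 5 CPM on either side, and a ratio of at least 1.5-fold is counted as higher or lower as a rule of size. The brackets are exact Clopper-Pearson 95% intervals that cover counting error only. Within a cell type, ratios needed 50 or more of its cells on each side. Where a gene had 0 UMIs on a side, 3 UMIs were put in its place, and no ratio was given if the other side lay at or under that level. In gates of few cells, a handful of UMIs decides the ratio of a low gene.

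The first question is what the deletion of Shp-1 goes with in MA9 leukaemia given Arac+Dox. In whole libraries 3 of the 38 genes were higher and 5 lower in the library labelled Δ/Δ than in that labelled f/f, where 16.6% and 12.7% of 9306 genes were higher and lower. The share lower was thus close to that of all genes. The median log2 ratio of the list was -0.19, against 0.04 over all genes. Lgmn was the largest difference upward, at 45.9 against 12.9 CPM (log2 ratio 1.83, 1.73 to 1.92). Bnip3l stood at 74.4 against 204 CPM (-1.45) and Map1lc3a at 8.20 against 22.6 CPM (-1.47). Tfeb was lower too, at 8.31 against 14.3 CPM (-0.79). Cell content differed beside these ratios: secondary granule markers summed to 3366 against 33108 CPM, and macrophage-like cells numbered 128 against 21. Their part in the ratios was not tested.

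Within monocyte-like cells the picture was broader. There 19 genes were lower and 2 higher in the library labelled Δ/Δ, in 3755 against 2508 cells, where 16.7% and 14.6% of 9326 genes were lower and higher, and the median of the list was -0.58 against -0.03 over all genes. Psap stood at 388 against 827 CPM (-1.09, -1.12 to -1.06), Ctsh at 210 against 479 CPM (-1.19, -1.23 to -1.15), Npc2 at 416 against 862 CPM (-1.05) and Gm2a at 149 against 309 CPM (-1.05). Tfeb stood at 10.2 against 20.4 CPM (-0.995, -1.18 to -0.81). The genes above the fold were Lgmn, at 64.1 against 36.1 CPM (0.83), and Atg12, the ubiquitin-like protein joined to Atg5, at 62.8 against 41.8 CPM (0.59). The lower genes reached across roles, from proteases to receptors.

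In the PBS pair of the same comparison 4 genes were higher and 3 lower in the library labelled Δ/Δ than in that labelled f/f, where 15.1% and 8.75% of 9406 genes were higher and lower. The median of the list was 0.08, against 0.15 over all genes. Lgmn stood at 35.5 against 11.4 CPM (1.64, 1.52 to 1.76), Cd63 at 275 against 529 CPM (-0.95), Bnip3l at 97.6 against 196 CPM (-1.01) and Map1lc3a at 9.97 against 23.8 CPM (-1.25). Lgmn, Map1lc3a and Bnip3l thus lay on the same side in both pairs labelled as deletion, which share no library. Here too secondary granule markers differed, at 3248 against 34609 CPM, as did the number of macrophage-like cells, 163 against 31, and their part was not tested.

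Within monocyte-like cells of the PBS pair 13 genes were lower and 1 higher, in 2889 against 1760 cells, where 9.92% and 8.90% of 9301 genes were lower and higher. The median was -0.39, against 0.04 over all genes. All 13 were among the 19 lower in the Arac+Dox pair (100% and 68.4% of the counts): Ctsb, Ctsh, Ctsl, Ctss, Lamp1, Cd68, Npc2, Psap, Gm2a, Tfeb, Tfe3, Map1lc3a and Bnip3l. The same overlap was not counted over all genes, so whether it is particular to the list is not known. Ctss stood at 159 against 312 CPM (-0.97, -1.03 to -0.92), Psap at 291 against 551 CPM (-0.92, -0.96 to -0.88) and Lamp1 at 377 against 621 CPM (-0.72). Lgmn was the gene above the fold, at 42.4 against 27.7 CPM (0.61, 0.45 to 0.78). Its ratio lies just over 1.5-fold, and its interval reaches below that size. With the doublets called by Scrublet removed, 0 genes were higher there.

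The make-up of the monocyte gate moved with these ratios. Its cells had medians of 11015 and 11785 UMIs in the libraries labelled Δ/Δ given Arac+Dox and PBS, against 7554.5 and 6771 in those labelled f/f. The gate asked for 4 detected markers, so entry to it depends on depth. Monocyte markers summed in the gate to 2593 and 2329 CPM in the libraries labelled Δ/Δ given Arac+Dox and PBS, against 3671 and 4231 CPM in those labelled f/f. The gate set no limit on primary granule markers, so its name does not exclude promyelocytes. These markers summed to 14167 and 10412 CPM against 10480 and 7807 CPM, above the monocyte sum of each library. Stem and progenitor markers summed to 842 and 1276 CPM against 609 and 815 CPM. The part of depth and of these markers in the ratios was not tested.

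Counts differed between the other cell types. In promyelocyte-like cells 10 genes were lower and 1 higher with Arac+Dox (18.5% and 11.9% of all genes), and 3 lower and 2 higher with PBS (7.78% and 8.13%). In neutrophil precursor-like cells 10 were lower and 0 higher with Arac+Dox (13.9% and 8.12%), and 1 lower and 3 higher with PBS (6.14% and 6.16%). In mature neutrophil-like cells 10 were higher and 4 lower given Arac+Dox (28.4% and 19.4%), a share higher close to that of all genes, and 14 higher and 1 lower given PBS (27.8% and 14.9%), on 50 and 213 cells of the libraries labelled Δ/Δ. In stem and progenitor-like cells given PBS 8 were lower and 1, Lgmn, higher (9.52% and 12.5%), Lgmn at 34.9 against 7.50 CPM (2.22, 1.37 to 3.23). In conventional dendritic-like cells given PBS 10 were lower and 3 higher (20.9% and 24.0%, on 85 against 59 cells), and in T cell-like cells 5 lower and 9 higher (25.1% and 21.8%, on 361 against 55 cells). Whether the monocyte-like cells differ from these types was not tested.

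**Figure D4:**
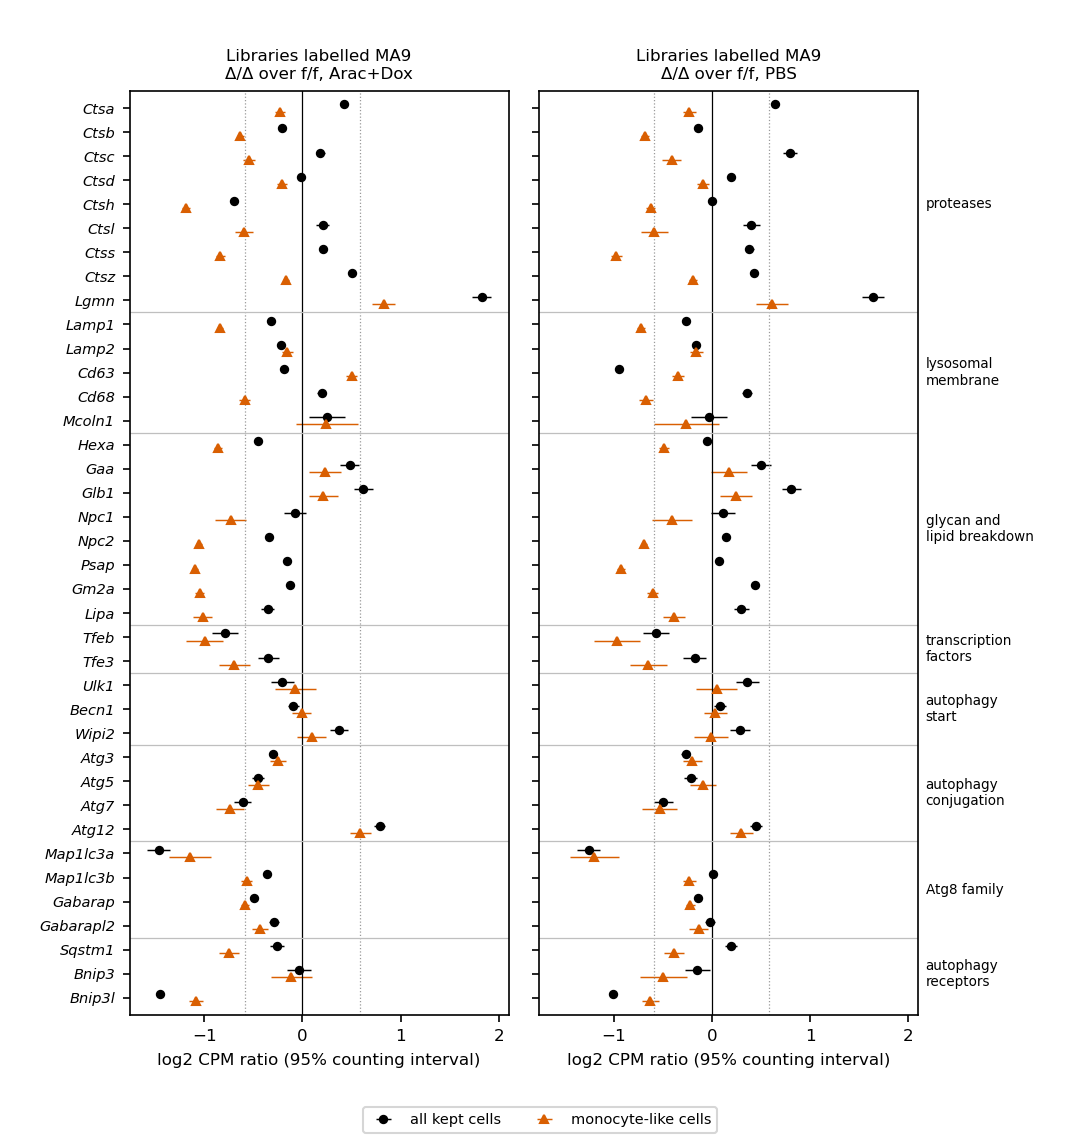
Log2 CPM ratio of each of the 38 genes between the MA9 libraries labelled Δ/Δ and f/f, given Arac+Dox (left) and PBS (right), with 95% counting intervals; circles are all kept cells, triangles monocyte-like cells, and dotted lines mark 1.5-fold. Most triangles lie left of 0 in both panels, and Lgmn lies right of the upper dotted line in both.

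The next question is what chemotherapy goes with. Its MA9 pairs use the same 4 libraries as the pairs labelled as deletion. In MA9 the list differed little between Arac+Dox and PBS, as did all genes, so this is not particular to the list. Between the libraries labelled Δ/Δ 0 genes were higher and 2 lower with Arac+Dox, where 3.59% and 7.44% of 9341 genes were higher and lower. These were Sqstm1, at 35.0 against 64.0 CPM (-0.87, -0.93 to -0.81), and Ulk1, at 11.4 against 18.3 CPM (-0.69). Between the libraries labelled f/f 1 gene was higher and 0 lower, where 1.89% and 3.58% of 9099 genes were. It was Ctsc, at 72.3 against 33.2 CPM (1.12), and in monocyte-like cells it stood at 174 against 84.8 CPM (1.04, 0.94 to 1.13). In monocyte-like cells of the libraries labelled Δ/Δ Ctsc stood at 119 against 63.8 CPM (0.90, 0.83 to 0.97).

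Single cell types of MA9 held a few more differences. Between the libraries labelled Δ/Δ, Sqstm1 was lower with Arac+Dox in 7 of the 9 cell types compared. It stood at 36.2 against 64.1 CPM in monocyte-like cells (-0.82, -0.91 to -0.73), at 26.9 against 42.7 CPM in promyelocyte-like cells (-0.67, -0.80 to -0.54), at 65.5 against 115 CPM in macrophage-like cells (-0.81, -1.29 to -0.34), at 35.7 against 82.5 CPM in B cell-like cells (-1.21, -1.75 to -0.68) and at 36.1 against 68.8 CPM in T cell-like cells (-0.93, -1.52 to -0.37). In conventional dendritic-like and mature neutrophil-like cells the intervals of -0.59 and -0.74 reached above 0. Macrophage-like cells of these libraries, 128 with Arac+Dox and 163 with PBS, had 9 of the 38 genes higher and 3 lower (13.2% and 17.8% of all genes). Among the 9 were Ctss, at 1635 against 566 CPM (1.53, 1.40 to 1.67), Ctsl at 438 against 153 CPM (1.52, 1.25 to 1.78) and Lgmn at 726 against 415 CPM (0.81, 0.63 to 0.98).

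The further counts of the same pair, higher and lower with Arac+Dox, were 3 and 2 in monocyte-like cells (4.09% and 6.06%), 0 and 4 in promyelocyte-like cells (3.43% and 8.34%), 1 and 7 in neutrophil precursor-like cells (6.77% and 10.2%), 7 and 6 in mature neutrophil-like cells (20.8% and 30.3%), 3 and 2 in stem and progenitor-like cells (10.3% and 6.93%), 2 and 3 in conventional dendritic-like cells (19.1% and 15.8%), 4 and 4 in B cell-like cells (12.9% and 11.6%) and 5 and 4 in T cell-like cells (13.8% and 11.9%). In stem and progenitor-like cells Lgmn stood at 118 against 34.9 CPM (1.75, 1.52 to 1.98) and Psap at 268 against 159 CPM (0.76, 0.62 to 0.89). Between the libraries labelled f/f the counts were 3 and 0 in monocyte-like cells (2.75% and 4.06%), 2 and 0 in promyelocyte-like cells (2.29% and 3.68%), 2 and 0 in neutrophil precursor-like cells (2.67% and 3.51%) and 7 and 6 in mature neutrophil-like cells (15.5% and 27.0%). Ctsc was among the higher genes in all 4 of these types, at 40.6 against 26.1 CPM in promyelocyte-like cells (0.64, 0.44 to 0.83), 24.8 against 8.98 CPM in precursor-like cells (1.46, 1.26 to 1.67) and 18.1 against 2.85 CPM in mature neutrophil-like cells (2.67, 0.85 to 5.10).

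In HM more of the list differed. With Arac+Dox 11 of 37 measured genes were higher and 3 lower than with PBS, where 28.2% and 20.2% of 8748 genes were higher and lower, so the share higher was close to that of all genes. The median was 0.24, against 0.10 over all genes. The higher genes were 5 proteases, 4 genes of glycan and lipid breakdown, and the receptors Sqstm1 and Bnip3l. Lgmn stood at 12.4 against 2.25 CPM (2.47, 1.97 to 3.01), Ctsd at 379 against 214 CPM (0.82, 0.77 to 0.88) and Sqstm1 at 127 against 54.5 CPM (1.22, 1.12 to 1.33). The lower genes were Bnip3, at 6.96 against 13.96 CPM (-1.004), Tfeb, at 10.2 against 17.9 CPM (-0.81), and Atg7, at 26.9 against 47.2 CPM (-0.81). Cell content differed as well. Markers of basophils and mast cells summed to 708 against 3.71 CPM, those of conventional dendritic cells to 771 against 67.5 CPM, those of T cells to 428 against 42.7 CPM and those of the secondary granule to 30340 against 47921 CPM. Of the genes of dissociation and stress 4 of 10 measured were lower with Arac+Dox and 0 higher. The part of these differences in the ratios was not tested.

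Several of these differences recurred within HM cell types. In mature neutrophil-like cells 14 genes were higher and 2 lower, in 2228 against 1727 cells, where 24.9% and 22.6% of 6991 genes were. Ctsd stood there at 709 against 318 CPM (1.16, 1.09 to 1.22), in precursor-like cells at 309 against 113 CPM (1.45, 1.31 to 1.59) and in monocyte-like cells at 246 against 131 CPM (0.91, 0.74 to 1.09). Sqstm1 stood at 120 against 67.7 CPM (0.83), 69.9 against 36.4 CPM (0.94) and 155 against 47.3 CPM (1.71) in the same types. Cd63 in monocyte-like cells was at 188 against 14.6 CPM (3.68, 3.20 to 4.21), the largest ratio of the list there. Ctsc ran the other way from MA9, at 200 against 433 CPM in HM monocyte-like cells (-1.12, -1.23 to -1.01). In precursor-like cells 10 genes were higher and 2 lower (12.6% and 30.0% of all genes), and in monocyte-like cells 7 higher and 3 lower (10.7% and 25.1%). The HM PBS library kept 22.1% of its barcodes, and every ratio of this pair rests on that remainder.

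**Figure D5:**
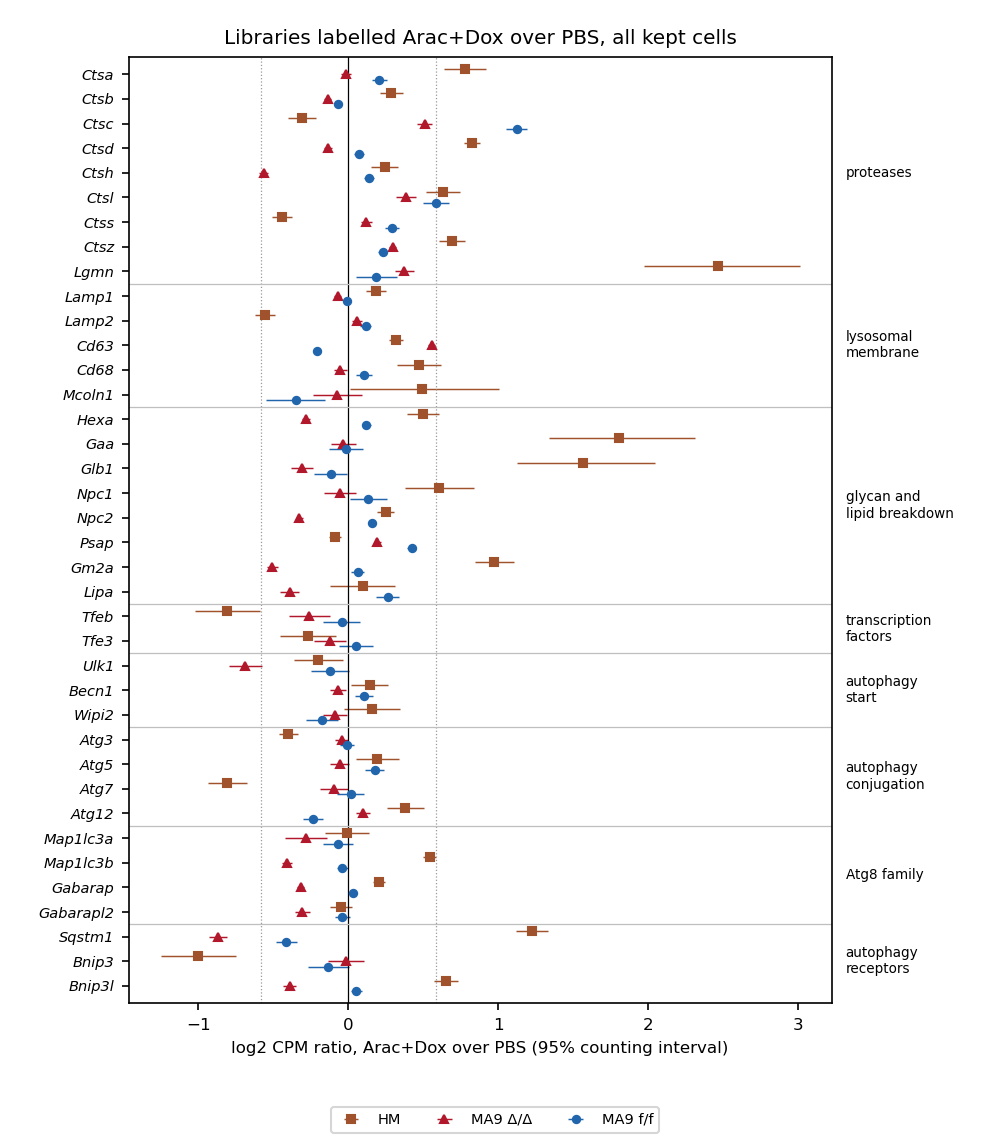
Log2 CPM ratio of each of the 38 genes between libraries labelled Arac+Dox and PBS over all kept cells, with 95% counting intervals, in HM, MA9 Δ/Δ and MA9 f/f; dotted lines mark 1.5-fold. The MA9 points lie near 0 for most genes, and HM points lie beyond the upper line for Lgmn, Gaa, Glb1 and Sqstm1.

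The last comparison sets HM against MA9 f/f, both given PBS, with CPM taken over the 30406 genes that all matrices hold. The list divided by role: 9 genes were higher and 17 lower in HM, where 12.5% and 54.7% of 9262 genes were higher and lower. The median of the list was -0.18, against -0.68 over all genes, so ratios are best read against that shift. With median-of-ratios scaling, which moved every ratio by 0.62, 16 were higher and 13 lower. Of the proteases, membrane and breakdown genes, 15 of 22 were lower. Gaa, the acid glucosidase that breaks down glycogen, stood at 2.66 against 17.4 CPM (-2.72, -3.21 to -2.26), Glb1 at 2.99 against 18.5 CPM (-2.63), Lgmn at 2.26 against 11.4 CPM (-2.33) and Hexa at 55.2 against 241 CPM (-2.13). Psap ran the other way, at 423 against 236 CPM (0.84, 0.80 to 0.88).

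Of the 14 autophagy genes 5 were higher in HM and 2, Atg5 and Bnip3l, lower. Map1lc3b stood at 316 against 160 CPM (0.98, 0.93 to 1.03), Ulk1 at 27.5 against 14.3 CPM (0.95) and Atg7 at 47.3 against 28.4 CPM (0.74). Mature neutrophil-like cells, in which these genes were highest, numbered 1727 of 2755 kept cells in HM PBS and 357 of 8614 in MA9 f/f PBS. Within that type 5 genes were higher and 12 lower in HM (12.3% and 45.2% of 7336 genes), within precursor-like cells 3 and 14 (10.3% and 44.8%), and within monocyte-like cells 3 and 15 (17.1% and 29.2%). The 5 higher in mature neutrophil-like cells were Ctsc, Ctsl, Ctss, Atg12 and Gabarapl2. The autophagy genes named above for the whole libraries were not among them: Map1lc3b had a log2 ratio of -0.10 there, Ulk1 of -0.30 and Atg7 of -0.48. In that type the median was -0.41 over the list and -0.49 over all genes. These ratios, too, are best read against such a shift. In monocyte-like cells Ctsc stood at 435 against 84.8 CPM (2.36), Psap at 1268 against 551 CPM (1.20) and Cd63 at 14.7 against 202 CPM (-3.78). The model, the files' feature sets and the share of barcodes kept differ together in this pair and cannot be told apart.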

How the data were processed

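The 6 matrices of UMI counts from the Chromium Single Cell 3′ v2 kit were used, whole numbers per gene and barcode as deposited, with no normalisation. Cell Ranger 3.0.2 and mm10 are named per the submitters' processing notes, and the MA9 file headers name that version. The labels' protocols describe flushing of marrow, lysis of red cells and a check of viability by flow cytometry. The 38 genes, the other pathway lists and the markers were chosen with earlier results of these data known. Barcodes with 500 genes or more and no more than 10% mitochondrial UMIs were used. Cell types were gates on marker UMIs whose thresholds were set after seeing the data: at least 1% of UMIs and 4 markers for mature neutrophil-like cells, 2% for secondary granule neutrophil precursor-like cells, 4 markers for monocyte-like cells, 3 markers with 2 of the C1q genes for macrophage-like cells, and 3 markers for B or T cell-like cells. The monocyte, promyelocyte and stem and progenitor gates took only cells with under 1% of UMIs from secondary granule markers. They also asked for under 1% from mature neutrophil markers. The monocyte gate set no limit on primary granule markers. It came before the promyelocyte gate, which asked for at least 1% of UMIs from those markers. Scrublet called 29 to 546 doublets per library, by its own threshold in both MA9 libraries labelled f/f and at their mean threshold elsewhere; they were kept in the reported values.

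UMIs were summed per library, and per library and gate, as CPM (Python 3.11.15, scanpy 1.11.5, numpy 2.4.6, pandas 2.3.3, scipy 1.17.1). Gates with at least 20 cells in a library were compared by edgeR 4.0.16 in R 4.3.3 (filterByExpr, TMM, quasi-likelihood test, library block, Benjamini-Hochberg adjustment over all genes tested, threshold 0.05), and every adjusted p is from that fit. The block pairs cell types of the same library, which come from the same cell suspension. Pairs of libraries, 1 per group, got log2 CPM ratios with exact 95% intervals, a rule of 1.5-fold and a floor of 3 counts. Any of the 38 genes could be named, and from each other list the 4 with the greatest log2 ratio of either sign among those reaching 20 CPM; genes named for a change of direction between scalings were chosen after their values were seen. The edgeR step was tested on simulated data. Alternatives were other filters, scalings (DESeq2 1.42.0 size factors among them), tests, and leaving out each library. Intervals cover counting error only.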

Additional observations from a re-analysis of the deposited data

Results flagged for a closer look

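Sqstm1, the cargo receptor p62, lay on opposite sides of 1.5-fold in the chemotherapy comparison of different leukaemias. Its log2 ratio of Arac+Dox over PBS was 1.22 in HM, -0.87 in MA9 labelled Δ/Δ and -0.41 in MA9 labelled f/f. Each side was 1 library, and the difference between these ratios was not tested. The same signs were seen in monocyte-like cells, at 1.71 in HM and -0.82 in MA9 labelled Δ/Δ, and in mature neutrophil-like cells, at 0.83 in HM and -0.62 in MA9 labelled f/f.

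Further genes had opposite signs within a cell type. Ctsc in monocyte-like cells had -1.12 in HM, against 1.04 in MA9 labelled f/f and 0.90 in MA9 labelled Δ/Δ. Ctss in mature neutrophil-like cells had -1.11 in HM, against 2.56 and 1.28. These 2 MA9 ratios rest on 187 against 357 cells labelled f/f and 50 against 213 labelled Δ/Δ. In that type of the library labelled MA9 f/f given PBS, Ctss was at 7.6 CPM. Bnip3l had 0.88 in HM and -0.62 in MA9 labelled f/f in mature neutrophil-like cells, and 0.96 in HM and -1.01 in MA9 labelled Δ/Δ in neutrophil precursor-like cells. Cd68 in neutrophil precursor-like cells had a log2 ratio of Δ/Δ over f/f, as labelled, of -0.65 with Arac+Dox and 0.66 with PBS. These differences were not tested either.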

How the results depend on the processing

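No paired analysis was possible because, in the comparisons between the study's groups, each group is 1 library and the libraries compared share no replicate numbers beyond 1. The cell type contrasts do use the library as a block. For them, leaving out the library block (no replicate block) gave 13 genes higher and 8 lower in monocyte-like, 22 and 3 in mature neutrophil-like, 10 and 7 in stem and progenitor-like, 12 and 0 in macrophage-like, 0 and 10 in B cell-like and 0 and 17 in T cell-like cells. Scaling to total UMIs, chosen after seeing the data, gave 4 lower in monocyte-like, 7 in mature neutrophil-like and 4 in stem and progenitor-like cells, and 1 higher in T cell-like cells. It turned the direction of Lamp2 (0.043), Becn1 (0.020), Map1lc3b (0.36) and Gabarap (0.013) in monocyte-like and of Ctsb (-0.40) and Ctsz (-0.35) in mature neutrophil-like cells. At least 50 cells per gate gave 2 higher in B cell-like and 1 in T cell-like cells, no filter on low counts 0 in T cell-like cells and the 4 MA9 libraries alone 1. Leaving out 1 library in turn gave 17 to 19 higher and 10 to 11 lower in monocyte-like, 25 to 26 and 4 to 5 in mature neutrophil-like, 9 to 18 and 6 to 8 in stem and progenitor-like, 14 to 19 and 0 in macrophage-like, 0 to 2 and 13 to 14 in B cell-like and 0 to 2 and 17 to 20 in T cell-like cells.

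Between libraries, median-of-ratios scaling gave 5 lower in the MA9 PBS pair labelled as deletion, 1 higher for Arac+Dox over PBS in MA9 labelled Δ/Δ, and 16 higher in HM over MA9 f/f, where it shifted all ratios by 0.62. Weighting every cell alike gave 3 lower in the Arac+Dox pair labelled as deletion and 1 higher for Arac+Dox over PBS in MA9 labelled Δ/Δ. At most 5% mitochondrial UMIs, or at least 1000 genes, gave 2 higher for Arac+Dox over PBS in MA9 labelled f/f. Removing doublets, also chosen after seeing the data, gave for the PBS pair labelled as deletion 5 higher in precursor-like, 2 lower in mature neutrophil-like and 0 higher in monocyte-like cells, for the Arac+Dox pair 3 higher in precursor-like and 1 in monocyte-like cells, for Arac+Dox over PBS 1 lower in monocyte-like cells of MA9 labelled f/f, and in MA9 labelled Δ/Δ 1 higher in dendritic-like, 2 in B cell-like and 3 in T cell-like cells. The causes were not tested. Of single-gene values in the contrasts, 2803 kept their call or lack of a call, 138 lost and 52 gained a call and 6 turned. A change of direction was counted there only with a call in either setting. Of single-gene library ratios 1224 stayed within their interval and 372 moved beyond it. Here a change of direction was counted only for ratios past 1.5-fold, of which 0 turned, so smaller ratios may have changed sign.

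Depth limits the rare types, such as the 21 macrophage-like cells of HM given Arac+Dox and the stem and progenitor-like gate of MA9 labelled f/f given Arac+Dox with 27.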

Other observations

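Other genes of the pathway were measured from lists kept apart from the 38. In mature neutrophil-like cells over neutrophil precursor-like cells the largest increase among those named was that of Slc11a1, a metal transporter of the phagosome, with medians of 48.7 and 2.53 CPM and a log2 fold change of 5.09 ± 0.38 (edgeR, TMM scaling, adjusted p = 1.28e-07). Sesn2, a stress-induced inhibitor of mTORC1 signalling, was higher by 3.33 ± 0.25 (adjusted p = 1.55e-07), and Rb1cc1, a partner of Ulk1 in the complex that starts autophagy, by 1.89 ± 0.18 (adjusted p = 8.02e-07). Elane and Prtn3, serine proteases of primary granules that cathepsin C activates, were lower by log2 values of -3.54 ± 0.42 (adjusted p = 6.69e-06) and -2.90 ± 0.32 (adjusted p = 3.37e-06).

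In macrophage-like over monocyte-like cells Slc11a1 was higher too, by 4.30 ± 0.39 (adjusted p = 7.17e-07). The acid phosphatases Acp2 and Acp5 were higher by 3.41 ± 0.19 (adjusted p = 2.77e-09) and 2.98 ± 0.40 (adjusted p = 5.54e-05), and Mitf, a relative of Tfeb, by 2.55 ± 0.35 (adjusted p = 5.89e-05).

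In the HM PBS library the barcodes that failed the limits held less of the list (as CPM) than those kept, with a median log2 ratio of -0.82 over the list. There 74.7% of barcodes exceeded the mitochondrial limit, and CPM counts mitochondrial UMIs. Lower CPM of other genes thus follows in part from the limit itself. The ratio was not taken over all genes, so it does not show a trait of the list. Lgmn had -1.68 and Gaa 1.01. The direction was not shared by all libraries. In that labelled MA9 Δ/Δ given PBS the failing barcodes held more of Psap (2.47), Lgmn (2.37), Ctsd (2.29), Ctsb (2.16) and Ctsl (1.56), and in that labelled MA9 f/f given PBS more Lgmn (2.59).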
